A study of Mus musculus with 7 samples.

Results

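Rsph1 and 6 other genes of motile cilia, Fam183b, Dynlrb2, Foxj1, Rsph9, Rfx2 and Rfx3, were followed through transcript profiles of embryonic mouse retina in which the histone methyltransferase gene Setd1a had been targeted. They are 7 of the 16143 genes in the deposited tables, and 17 of the 55404 transcripts. The 7 symbols were chosen with the difference between control and knockdown libraries already known, above all the low values of Rsph1 and Fam183b after knockdown. Their levels and differences are therefore described and carry no test. TPM, the unit of the tables, is a share of a library's transcripts scaled by transcript length, so levels of different genes can be set side by side on it.

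Retinas came from embryos of the ICR stock, an outbred mouse line, at embryonic day 17.5 per the sample labels, where the series' design text gives day 17. Kmt2f is another name of Setd1a. Retinas were electroporated with a plasmid for shKmt2f, a hairpin RNA that targets it, or with a control plasmid, and every explant also received an EGFP plasmid and spent 2 days in culture before EGFP-positive cells were sorted. There were 3 control and 4 shKmt2f libraries, made with SMART-Seq v4 from 1 ng of RNA, and the groups were of the same age, stock and culture. Whether replicate libraries stem from different animals or explants is not in the labels, so p-values measure only the spread between libraries, which may be technical. Only cells that took up plasmid were profiled, as bulk RNA, so fewer cells of a type cannot be told apart from less RNA per cell.

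Motile cilia beat because dynein motors slide the outer microtubule doublets of the axoneme against each other. Radial spokes carry signals from the central pair of microtubules to those motors, and loss of spoke proteins such as RSPH1 or RSPH9 causes primary ciliary dyskinesia in people. FOXJ1 is the forkhead factor that switches on the motile cilia program, and RFX factors bind the X-box, a near-palindromic motif in promoters of cilia genes. Neurons and progenitors of the retina carry a single primary cilium, and the photoreceptor outer segment is built on one; neither is a motile cilium.

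Promoter windows of 300 bases, from 250 before to 50 after the transcription start, were available from RefSeq on GRCm38.p6 for 5 of the 7 genes. Rsph1 and Foxj1 had no window. Those of 4 genes are printed to show where X-box matches lie in the structural genes, beside the window of Rfx3, which holds none. Whether such matches bear on the differences between groups was not tested. The strand is that of the gene, and capitals mark the looser X-box match, or in Rfx3 the arm GTTGCC.

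Fam183b (chr11:58801911-58802210, minus strand): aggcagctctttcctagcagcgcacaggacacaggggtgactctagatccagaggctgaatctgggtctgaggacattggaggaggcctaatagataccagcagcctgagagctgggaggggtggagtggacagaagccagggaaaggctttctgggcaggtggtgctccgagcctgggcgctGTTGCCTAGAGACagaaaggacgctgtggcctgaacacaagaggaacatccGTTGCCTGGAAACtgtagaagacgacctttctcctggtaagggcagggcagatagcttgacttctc
Dynlrb2 (chr8:116504765-116505064, plus strand): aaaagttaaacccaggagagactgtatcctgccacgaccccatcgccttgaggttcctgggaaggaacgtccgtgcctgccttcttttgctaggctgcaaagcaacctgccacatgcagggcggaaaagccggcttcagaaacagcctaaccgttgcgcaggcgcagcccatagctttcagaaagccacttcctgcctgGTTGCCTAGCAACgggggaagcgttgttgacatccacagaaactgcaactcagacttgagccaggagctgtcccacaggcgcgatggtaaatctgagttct
Rsph9 (chr17:46144151-46144450, minus strand): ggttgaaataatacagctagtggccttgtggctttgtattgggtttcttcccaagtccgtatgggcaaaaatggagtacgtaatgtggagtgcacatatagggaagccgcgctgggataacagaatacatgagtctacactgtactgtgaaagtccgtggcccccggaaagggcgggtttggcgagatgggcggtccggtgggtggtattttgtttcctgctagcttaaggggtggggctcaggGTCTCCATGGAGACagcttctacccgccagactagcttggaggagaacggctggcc
Rfx3 (chr19:28011117-28011416, minus strand): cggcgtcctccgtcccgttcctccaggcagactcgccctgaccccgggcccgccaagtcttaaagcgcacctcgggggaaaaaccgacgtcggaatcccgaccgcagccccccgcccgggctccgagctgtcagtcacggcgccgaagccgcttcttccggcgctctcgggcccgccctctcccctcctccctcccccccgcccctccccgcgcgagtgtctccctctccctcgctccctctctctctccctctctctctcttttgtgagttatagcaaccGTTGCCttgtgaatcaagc

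The targeted gene was examined first. The longest listed Setd1a transcript, of 6487 bases, stood at 0.767, 0.959 and 0.764 TPM in control replicates 1 to 3 and at 0.407, 0.328, 0.374 and 0.432 TPM in shKmt2f replicates 1 to 4. The groups did not overlap, and the shKmt2f mean was 46.4% of control. An exact permutation test, two-sided over the 35 possible assignments of libraries to groups, gave p = 0.0286, the smallest that this design allows. In all libraries, between 11840 and 12318 genes reached 1 TPM, and sequencing depth cannot be read from TPM.

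Rsph1 encodes a protein of the radial spoke head and had the largest difference of the 7 genes. It lies on chromosome 17 at chr17:31255019-31277383 on the minus strand of GRCm38, and 1 of its 3 annotated transcripts, of 1191 bases, was in the tables. Control replicates 1 to 3 had 28.8, 25.9 and 17.8 TPM of it, and shKmt2f replicates 1 to 4 had 2.63, 2.46, 3.32 and 3.88 TPM. The lowest control library was thus far above the highest shKmt2f library, and the 4 shKmt2f libraries lay close together. Means were 24.2 ± 5.70 TPM (SD, n = 3) and 3.07 ± 0.654 TPM (SD, n = 4), so that 12.7% of the control level remained. On the log2(TPM + 1) scale, used for all gene differences here as shKmt2f minus control, the difference was -2.61, the fifth from the lowest of 12456 tested genes. The authors' deposited table gives an effect of -2.14, a natural log.

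Rsph9, another spoke head protein, was the most abundant of the 7 genes and differed less between groups. It lies on chromosome 17 at chr17:46122035-46144216 on the minus strand. The sum of its 3 listed transcripts was 36.7, 26.1 and 24.7 TPM in control replicates 1 to 3. It was 13.5, 18.6, 14.7 and 16.5 TPM in shKmt2f replicates 1 to 4. The groups did not overlap, with control replicate 1 standing above the other two control libraries. The mean went from 29.1 ± 6.56 to 15.8 ± 2.24 TPM, 54.3% of control, a log2 difference of -0.83. After correction of each library for GC content and transcript length the difference was -0.53.

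The 2 spoke head genes therefore stood in a different proportion in the 2 groups. The ratio of Rsph1 to Rsph9 in TPM was 0.785, 0.992 and 0.722 in control replicates 1 to 3. In shKmt2f replicates 1 to 4 it was 0.194, 0.132, 0.226 and 0.235. Every control library held nearly as much or somewhat less Rsph1 than Rsph9, while every shKmt2f library held far more Rsph9 than Rsph1.

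Fam183b is a small gene associated with motile cilia, chosen with Rsph1 for its low values after knockdown. It lies on chromosome 11 at chr11:58792797-58801960 on the minus strand, and both annotated transcripts were listed. Control replicates 1 to 3 had 23.1, 13.8 and 13.7 TPM and shKmt2f replicates 1 to 4 had 2.85, 1.62, 4.18 and 5.67 TPM. The groups did not overlap, control replicate 1 was the highest of all, and the shKmt2f libraries varied more among themselves than they did for Rsph1. Means were 16.9 ± 5.42 and 3.58 ± 1.74 TPM, 21.2% of control, a log2 difference of -2.01. The 2 transcripts, of 567 and 493 bases, were lower to a like degree, at 21.5% and 20.9% of control, and the longer made up 59.6% of the gene's TPM in control and 60.3% in shKmt2f libraries. The shorter was listed at 0 in shKmt2f replicate 2, and its highest shKmt2f value, 3.75 TPM, came next to its lowest control value, 3.76 TPM.

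Dynlrb2 encodes a roadblock-type light chain of dynein. It lies at chr8:116504974-116515915 on the plus strand, and 1 of its 2 annotated transcripts, of 515 bases, was listed. Its level was low, at 5.05, 3.95 and 2.47 TPM in control replicates 1 to 3 and 1.02, 0.970, 1.58 and 0.999 TPM in shKmt2f replicates 1 to 4. Groups did not overlap, and shKmt2f replicate 3 stood above its 3 fellow libraries, which lay between 0.970 and 1.02 TPM. The mean went from 3.83 ± 1.30 to 1.14 ± 0.291 TPM, 29.9% of control, a log2 difference of -1.14. Its paralog Dynlrb1 is described with the cytoplasmic dynein genes further on.

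Foxj1, the forkhead regulator, was the lowest of the 7 genes in both groups. It lies at chr11:116330704-116335399 on the minus strand and has 1 transcript, of 2623 bases. Control replicates 1 to 3 had 1.73, 1.47 and 1.69 TPM, and shKmt2f replicates 1 to 4 had 0.904, 0.797, 0.843 and 0.781 TPM. The values of each group lay close together and the groups did not overlap. Means were 1.63 ± 0.140 and 0.831 ± 0.0554 TPM, 51.0% of control, and the log2 difference of -0.52 understates this because the added 1 TPM is as large as the level itself. Foxj1 reached 1 TPM in all 3 control libraries and in 0 shKmt2f libraries, so it entered the tables of tested genes through its control level alone.

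The X-box factors Rfx2 and Rfx3 differed in opposite directions in their means. Rfx2 lies at chr17:56775897-56831013 on the minus strand, and 2 of its 5 annotated transcripts were listed. Its sum was 3.74, 3.40 and 3.82 TPM in control replicates 1 to 3 and 0.971, 1.71, 1.14 and 1.44 TPM in shKmt2f replicates 1 to 4. Control libraries were closely spaced, all shKmt2f libraries were below them, and the mean went from 3.66 ± 0.222 to 1.32 ± 0.325 TPM, 36.0% of control, a log2 difference of -1.02. The transcript of 3283 bases carried it, at 3.42 ± 0.533 TPM in control libraries and 1.16 ± 0.325 TPM in shKmt2f ones, while the one of 3350 bases stayed at or under 0.587 TPM in every library.

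Rfx3, at chr19:27761721-28011166 on the minus strand, had 7 of its 8 annotated transcripts in the tables. Its sum was 12.2, 8.54 and 11.7 TPM in control replicates 1 to 3 and 9.73, 14.9, 15.5 and 15.8 TPM in shKmt2f replicates 1 to 4. The groups overlapped, since shKmt2f replicate 1 lay among the control libraries while the other 3 were above them. Means were 10.8 ± 1.98 and 14 ± 2.86 TPM, 129.5% of control, with a log2 difference of 0.34. A transcript of only 343 bases held 45.9% of the gene's TPM in control and 53.4% in shKmt2f libraries. It stood at 6.92, 2.74 and 5.21 TPM in control libraries and at 3.42, 8.12, 8.89 and 9.44 TPM in shKmt2f ones, and the groups of this and of the other 6 transcripts overlapped. The 2 longest transcripts, of 9146 and 8988 bases, were low. The former had 0.687, 2.23 and 0.758 TPM in control libraries and 1.83, 1.79, 1.68 and 1.67 TPM in shKmt2f ones. The latter reached 1.69 TPM in control replicate 1, was listed at 0 in control replicate 2, and lay from 0.261 to 1.24 TPM in shKmt2f libraries.

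As a share of Rfx2 and Rfx3 together, Rfx2 made up 23.5%, 28.5% and 24.6% of TPM in control replicates 1 to 3. It made up 9.07%, 10.3%, 6.86% and 8.35% in shKmt2f replicates 1 to 4. The groups did not overlap, so every shKmt2f library had proportionally less Rfx2.

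**Figure D1:**
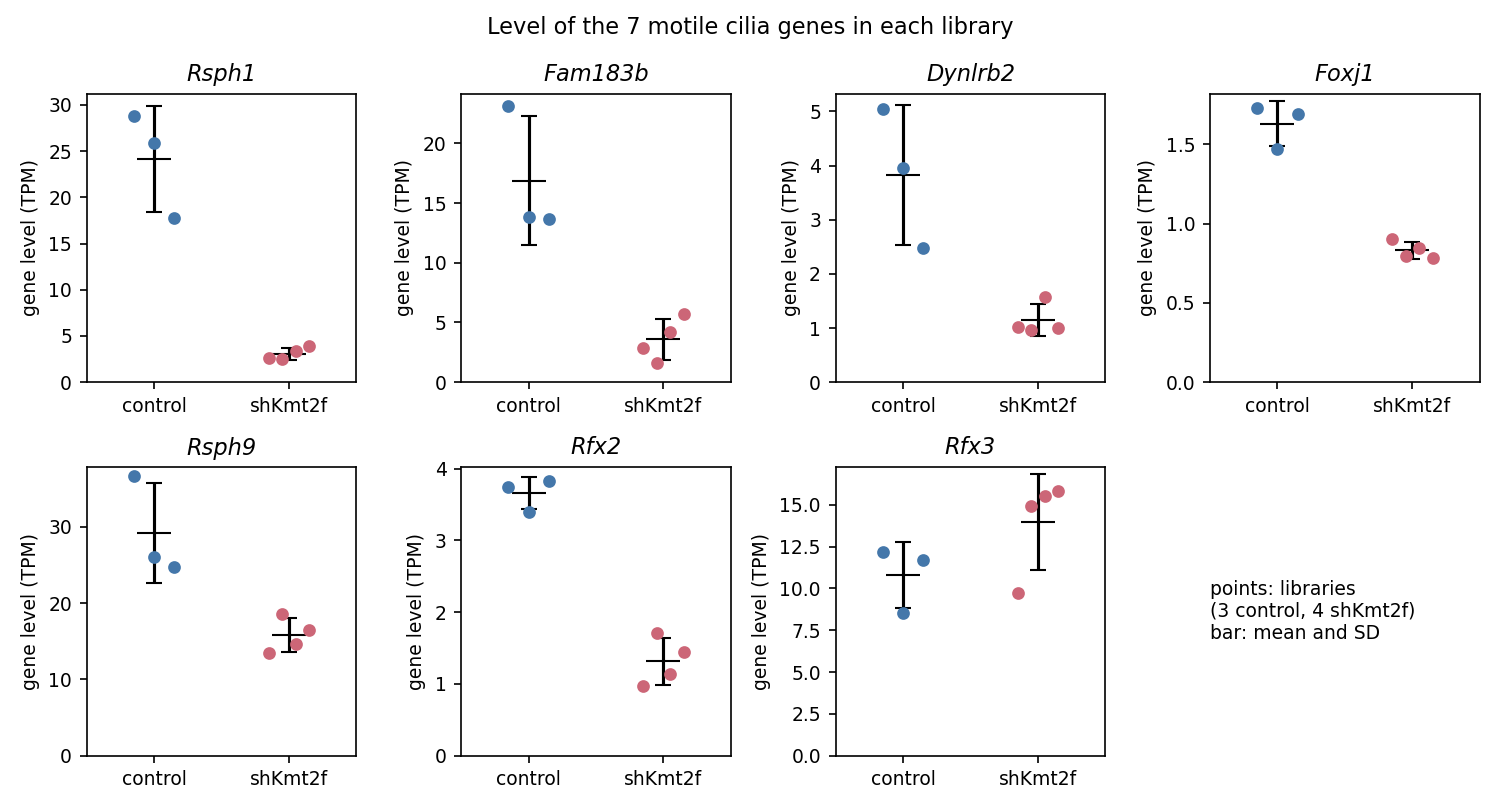
Level in TPM (vertical axis, linear, starting at 0) of each of the 7 genes in the 3 control and 4 shKmt2f libraries; points are libraries and bars are the mean and SD. All shKmt2f points lie below all control points for 6 genes, and for Rfx3 shKmt2f replicate 1 (9.73 TPM) lies among the control libraries.

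In order of level, control libraries ran Rsph9, Rsph1, Fam183b, Rfx3, Dynlrb2, Rfx2 and Foxj1, where the ranges of Rsph9 and Rsph1, of Rsph1 and Fam183b, and of Dynlrb2 and Rfx2 overlapped. In shKmt2f libraries the order was Rsph9, Rfx3, Fam183b, Rsph1, Rfx2, Dynlrb2 and Foxj1, with overlaps between Rsph9 and Rfx3, Fam183b and Rsph1, and Rfx2 and Dynlrb2. Rsph1 thus passed from the second to the fourth place and Rfx3 from the fourth to the second. The sum of the 6 genes other than Rfx3 was 99.2, 74.7 and 64.1 TPM in control libraries and 21.9, 26.2, 25.7 and 29.3 TPM in shKmt2f ones.

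In the model across all genes, fitted with limma, 6 of the 7 genes passed an adjusted p of 0.05 as lower and 0 as higher, also at an unadjusted p under 0.05. All 7 had passed the filter on low values, and 4 of them reached 1 TPM in every library. Among all 12456 genes tested, 3.69% were called lower and 10.4% higher. The ranges of 6 of the 7 genes did not overlap, with shKmt2f the lower, as in 9.67% of all tested genes. Because the genes were chosen on this contrast, nothing is read from their count. Every difference kept its sign under each alternative that gave a value, but the count of the 7 called lower varied. With any 1 control library left out Foxj1 fell short of the filter, so it was not tested and could not be called. The count was 3 without control replicate 1 or without shKmt2f replicate 1, and 4 without control replicate 3 or any 1 of shKmt2f replicates 2 to 4. Correcting for GC content and length also left 4.

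**Figure D2:**
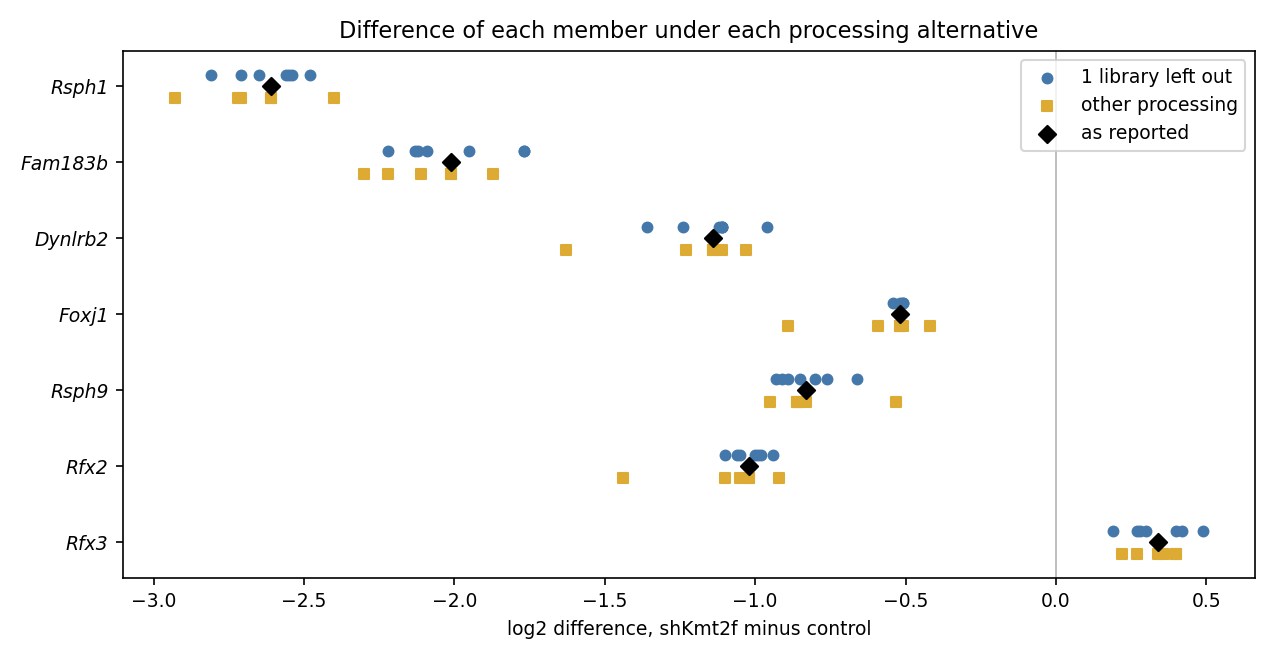
Log2 difference (shKmt2f minus control) of each of the 7 genes as reported (diamond), with 1 library left out (circles) and under other processing (squares). Rsph1 ranged from -2.93 to -2.40, Fam183b from -2.30 to -1.77 and Rfx3 from 0.19 to 0.49, and no value crossed 0.

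Of the 17 listed transcripts of the 7 genes, out of 24 annotated, 7 were lower in shKmt2f libraries without overlap and 10 overlapped. The genes were chosen on this contrast and the share over all transcripts was not computed, so nothing is read from these counts. The 7 lower transcripts were the single ones of Rsph1, Dynlrb2 and Foxj1, both of Fam183b, and the most abundant one of Rsph9 and of Rfx2, all protein coding. For Rsph9 this was the transcript of 966 bases, which stood at 31.4, 23.2 and 21.9 TPM in control replicates 1 to 3 and at 11.0, 12.7, 13.9 and 12.7 TPM in shKmt2f replicates 1 to 4. Its mean was 49.3% of control and its share of the gene went from 87.5% to 79.4%. The Rsph9 transcript of 403 bases, at 4.85, 2.52 and 2.26 TPM in control libraries and 1.46, 5.44, 0.500 and 3.42 TPM in shKmt2f ones, had no such order, and the retained-intron transcript of 670 bases stood at 0.436 ± 0.0587 and 0.554 ± 0.352 TPM. The transcript of 403 bases, and not the one of 966 bases, shares a stretch of chromosome 17 with Mrps18a (chr17:46110986-46128910) on the opposite strand; whether reads were assigned by strand is not given in the sources used here. In the authors' deposited table the natural log effects were -1.63 and -2.38 for the longer and shorter Fam183b transcripts, -1.25 for Dynlrb2, -0.75 for Foxj1, -0.78 for the Rsph9 transcript of 966 bases and -1.18 for the Rfx2 transcript of 3283 bases. In the same authors' deposited table the Rsph9 transcripts of 403 and 670 bases had -0.51 and 0.03, the Rfx2 transcript of 3350 bases 0.72, and the 7 Rfx3 transcripts from -1.36 to 2.38. The sign for that Rfx2 transcript was opposite to its TPM, whose mean in shKmt2f libraries was 67.4% of control. The same held for the Rfx3 transcripts of 8988 and 2091 bases. Their effects were 1.18 and 1.31, while their TPM means in shKmt2f libraries were 67.9% and 80.0% of control.

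**Figure D3:**
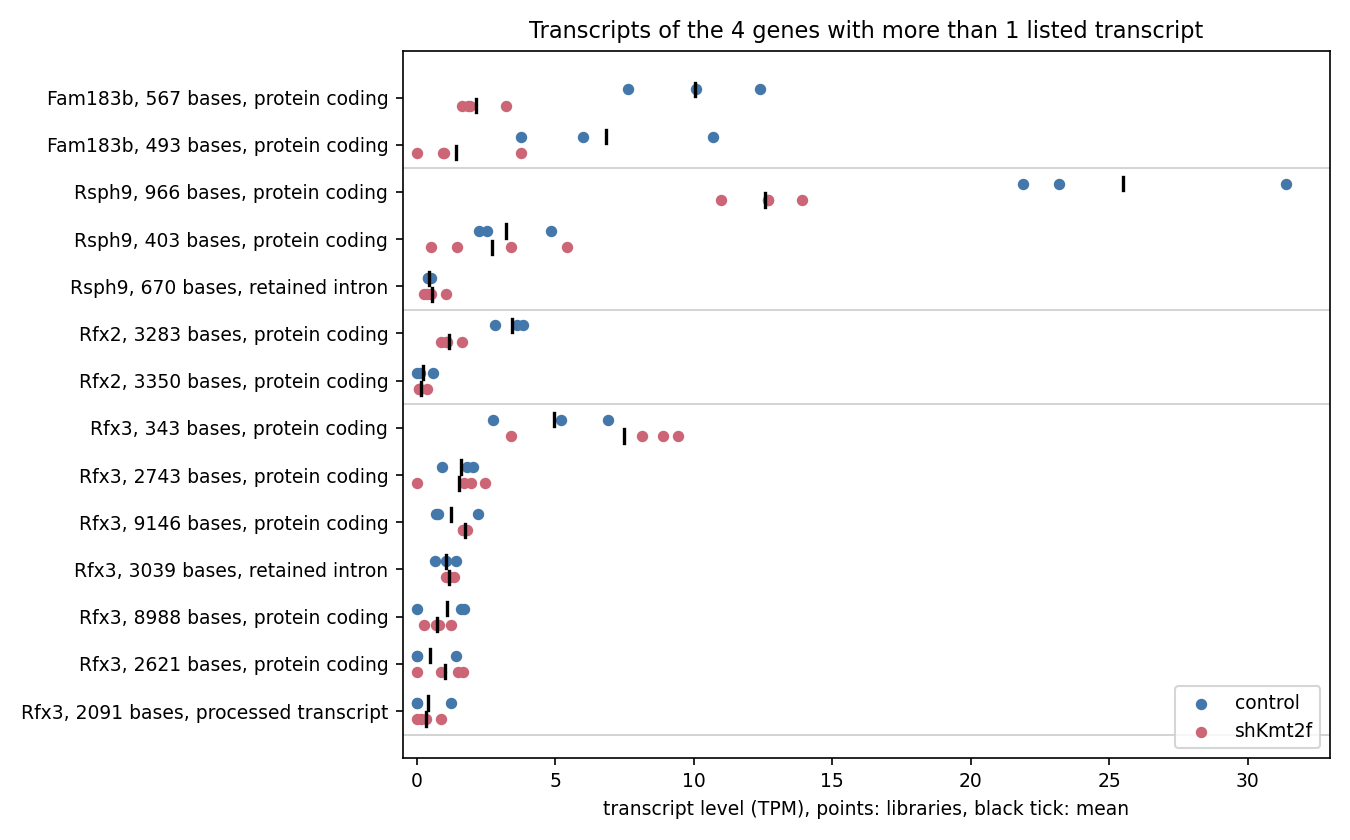
Level in TPM (horizontal axis) of each listed transcript of Fam183b, Rsph9, Rfx2 and Rfx3, with points for libraries and a black tick for each group's mean. The Rsph9 transcript of 966 bases and the Rfx2 transcript of 3283 bases separate the groups, while all 7 Rfx3 transcripts overlap.

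The promoter windows held X-box matches in 4 of the 5 genes. Positions count from the start base as 0, negative before it. In the Fam183b sequence shown above the matches GTTGCCTAGAGAC and GTTGCCTGGAAAC began at -67 and -16. In Dynlrb2 the match GTTGCCTAGCAAC began at -51, and this was the only one of the 5 windows to meet a stricter form of the motif. The Rsph9 match GTCTCCATGGAGAC began at -6 and ran over the start, and the Rfx2 match GCCGCCATAGAGAC began at 19. GTTGCC, which can form part of an X-box match, was found in 4 of the 5 windows, in Rfx3 at 31, and the forkhead motif GTAAACA was in 0 of 5.

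Both strands were searched, and the stricter and looser X-box can match the same bases, as they do in Dynlrb2. Of 32851 RefSeq promoter windows, 1.53% hold the stricter form, 34.7% the looser form, 12.5% GTTGCC and 3.65% GTAAACA. A looser match is therefore common among promoters in general. In the genes of the 8 lists described next, of which 91 of 113 had a window, 15.4% held the stricter form, against 1.75% of all 27025 genes in the table, and 45.1% held GTTGCC, against 14.1%. These are descriptions of letters in a window and not of bound sites.

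Among all 186 tested genes with the stricter X-box, 10 were called lower (5.38%) and 18 higher (9.68%), and the median of log2 fold changes was 0.04. The 186 include Dynlrb2, which was chosen on this contrast and was called lower. Without the chosen genes and those of the lists, 179 genes remained. Of these 179, 9 were called lower (5.03%) and 18 higher (10.1%), and the median was again 0.04. For the 8967 tested genes that have a promoter window the shares were 3.58% and 11.0% and the median was 0.09. Of 6 tested genes of the lists with the stricter form, 0 were called in limma in either direction: Rsph3b, Ppil6, Dnaaf2, Cfap298, Ribc1 and Nme7, with log2 fold changes from -0.30 to 0.34 and the smallest adjusted p, 0.0928, for Cfap298. At an unadjusted p under 0.05, 0 of the 6 were lower and 2 higher, where 9.14% and 23.2% of all tested genes were. Another 8 listed genes with the stricter form were below the level of the test. Of these, 3, Lrrc23, Ccdc151 and Ccno, were lower in every shKmt2f library than in any control library, and 0 were higher. Among all 3687 genes below that level 4.99% were lower and 7.08% higher in this way. With so few genes nothing is read from the count, and the 3 are given with the low genes further on.

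Other genes were examined through 8 lists of 182 symbols that hold none of the 7 genes. Of the lists, 6 cover parts of the axoneme and their assembly, 1 holds regulators, some of them general cell cycle factors, and 1 holds dynein genes used in most cells. Of these symbols, 113 were listed and 68 reached the level of the test, 1 TPM in at least 3 libraries. In limma with Benjamini-Hochberg adjustment over all tested genes, 4 of the 68 were called lower (5.88%, against 3.69% of all tested genes) and 3 higher (4.41%, against 10.4%). Their median log2 fold change was -0.03, against 0.09 for all tested genes, and 40 of 68 lay below 0, where 40.7% of all tested genes did. Over the 6 axonemal lists alone, 26 of 36 lay below 0, the median was -0.18, 3 were called lower (8.33%) and 1 higher (2.78%). For all 8 lists the lower count was 11 (16.2%, against 6.70% of all tested genes) and the higher count 2 (2.94%, against 8.73%) after median-ratio scaling of the libraries, which shifted the overall median by -0.11 and the share of higher calls among all genes from 73.8% to 56.6%. The lower count was 1 or 2 with any 1 library left out, except without control replicate 2, where it was 4 (5.97%, against 4.62% of all genes then tested). With any 1 library left out the higher count was 0 or 1, except without control replicate 2, where it was 10 (14.9%, against 19.7%). The lowest log2 fold change of the 68, that of Nme5 at -0.85, was smaller in size than the differences of Rsph1, Fam183b, Dynlrb2 and Rfx2. Because those genes were chosen on this contrast, nothing is read from that order. Some of the 45 list genes too low for the test had shares of control as low as that of Fam183b, while others were higher.

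The counts for single lists stand beside 3.69% of all tested genes called lower and 10.4% higher. At an unadjusted p under 0.05 in limma these shares were 9.14% and 23.2%, and 40.7% of all tested genes lay below 0. With 4 to 17 tested genes in a list, nothing is read from 1 or 2 of them. Of 7 tested radial spoke genes, 1 was called lower and 1 higher (14.3% each). Nme5, a spoke protein of the nucleoside diphosphate kinase family, had 4.94, 4.83 and 4.32 TPM in control libraries and 2.63, 2.09, 3.05 and 1.20 TPM in shKmt2f ones. The groups did not overlap, and Nme5 fell by 0.85 on the log2 scale (SE 0.22, limma adjusted p = 0.0378), a call lost without any 1 library, where adjusted p lay from 0.0504 to 0.113. Cyb5d1, a cytochrome b5 domain protein placed at the spokes in algae, rose from 17.5 ± 1.74 to 27.8 ± 3.60 TPM (log2 0.63, SE 0.14, limma adjusted p = 0.0279), and its adjusted p reached 0.0874 without control replicate 1, with the call lost without any library but control replicate 2. Rsph3b, a spoke stalk protein, went from 15.9 ± 1.41 to 13.4 ± 0.392 TPM and did not pass (limma adjusted p = 0.254), nor did Rsph10b, from 6.85 ± 2.19 to 4.05 ± 0.857 TPM (limma adjusted p = 0.0961), though in both the groups did not overlap. Of the 7 spoke genes 6 lay below 0, with a median of -0.22, and 2 were lower and 1 higher at an unadjusted p under 0.05. Each difference was smaller in size than that of Rsph1, which was chosen for its low shKmt2f values, so nothing is read from this.

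Of the 5 tested axonemal dynein genes, 0 passed in limma and 1 was lower at an unadjusted p under 0.05, where 9.14% of all tested genes were. All 5 lay below 0, as 40.7% of all tested genes did, and the list's median log2 fold change was -0.23. The heavy chain gene Dnah7a, the 1 lower at an unadjusted p, stood at 1.34 ± 0.191 and 0.585 ± 0.240 TPM with no overlap. Its limma adjusted p, 0.05 after rounding, did not pass. Dnah7a reached 1 TPM in 3 control and 0 shKmt2f libraries. It was therefore tested through its control level alone, and nothing is read from its p-values. The light chain gene Dnal1 stood at 2.27 ± 0.716 and 1.40 ± 0.697 TPM (limma adjusted p = 0.249) and Dnal4 at 35.9 ± 3.58 and 35.0 ± 2.95 TPM (limma adjusted p = 0.877). Of 6 tested assembly and docking genes, 1 was lower: Ruvbl2, an ATPase of several chaperone complexes and not particular to cilia, fell from 499.1 ± 42.4 to 312.1 ± 24.8 TPM (log2 -0.68, SE 0.10, limma adjusted p = 0.0129). After correction for GC content and length its adjusted p was 0.0903. Its partner Ruvbl1 stood at 66.5 ± 8.48 and 56.1 ± 2.48 TPM (limma adjusted p = 0.193).

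In the list of the nexin-dynein regulatory complex and the molecular ruler, 0 of 5 passed in limma and 1, Iqcg, was higher at an unadjusted p under 0.05. Iqcg reached 1 TPM in 1 control and 4 shKmt2f libraries, so it was tested through its shKmt2f level. The most abundant members Gas8 and Ccdc40 had log2 fold changes of -0.02 and -0.20 (limma adjusted p = 0.954 and 0.743). In the central apparatus 0 of 4 passed in limma, and 2 were lower at an unadjusted p under 0.05, where 9.14% of all tested genes were. Cfap69 stood at 3.12 ± 2.94 and 5.58 ± 1.83 TPM (limma adjusted p = 0.206, but 0.0162 without control replicate 2) and Stk36 at 11.9 ± 1.84 and 11.8 ± 2.69 TPM (limma adjusted p = 0.938). Of 9 tektins and microtubule inner proteins, 1 was lower: Saxo2, a stabiliser of axonemal microtubules, fell from 6.83 ± 0.451 to 4.33 ± 0.698 TPM (log2 -0.57, SE 0.16, limma adjusted p = 0.0473), a call lost in 10 of 13 alternatives, among them 6 of the 7 that left out 1 library (highest adjusted p = 0.137 in limma). Tekt1, a tektin of the doublet lumen, stood at 11.2 ± 1.17 and 8.10 ± 0.781 TPM and did not pass (limma adjusted p = 0.0749).

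Among regulators of multiciliation and the remaining RFX genes, 15 were tested and 3 lay below 0, with a median log2 fold change of 0.25. In limma 0 were lower, also at an unadjusted p under 0.05, and 1 was higher (6.67%, against 10.4% of all tested genes). At an unadjusted p, 5 of the 15 were higher, where 23.2% of all tested genes were. The higher gene was E2f5, a partner of the multiciliation activators, which rose from 12.8 ± 2.00 to 19.6 ± 1.15 TPM (log2 0.59, SE 0.14, limma adjusted p = 0.0326), a call lost in 7 of 13 alternatives, 6 of them with 1 library left out (highest adjusted p = 0.0981 in limma). Rfx5, at 3.26 ± 1.17 and 5.85 ± 1.31 TPM, and Rfx7, at 5.33 ± 1.03 and 7.86 ± 1.21 TPM, had groups that did not overlap, but neither passed (limma adjusted p = 0.0780 and 0.0965). Rfx1 stood at 3.33 ± 0.579 and 3.17 ± 0.0674 TPM (limma adjusted p = 0.860). Rfx2 thus had lower values beside Rfx3, Rfx5 and Rfx7 with higher means.

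The last list had 17 tested genes, for cytoplasmic dynein light chains, other cytoplasmic dynein chains and dynein 2. Of these, 1 was lower and 1 higher (5.88% each, against 3.69% and 10.4% of all tested genes). Tctex1d2, a light chain of the ciliary transport motor dynein 2, fell from 22.9 ± 2.09 to 14.1 ± 1.32 TPM (log2 -0.66, SE 0.13, limma adjusted p = 0.0232). Dynlt3 rose from 23.0 ± 12.6 to 49.5 ± 2.02 TPM (log2 1.21, SE 0.31, limma adjusted p = 0.0386), with control values of 21.3, 36.4 and 11.4 TPM. These calls were lost in 5 and 8 of 13 alternatives, with adjusted p of up to 0.0733 and 0.122 in limma when 1 library was left out. Dynlrb1, the widely used paralog of Dynlrb2, stood at 243.0 ± 33.6 and 213.6 ± 13.9 TPM and did not pass (limma adjusted p = 0.324).

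**Figure D4:**
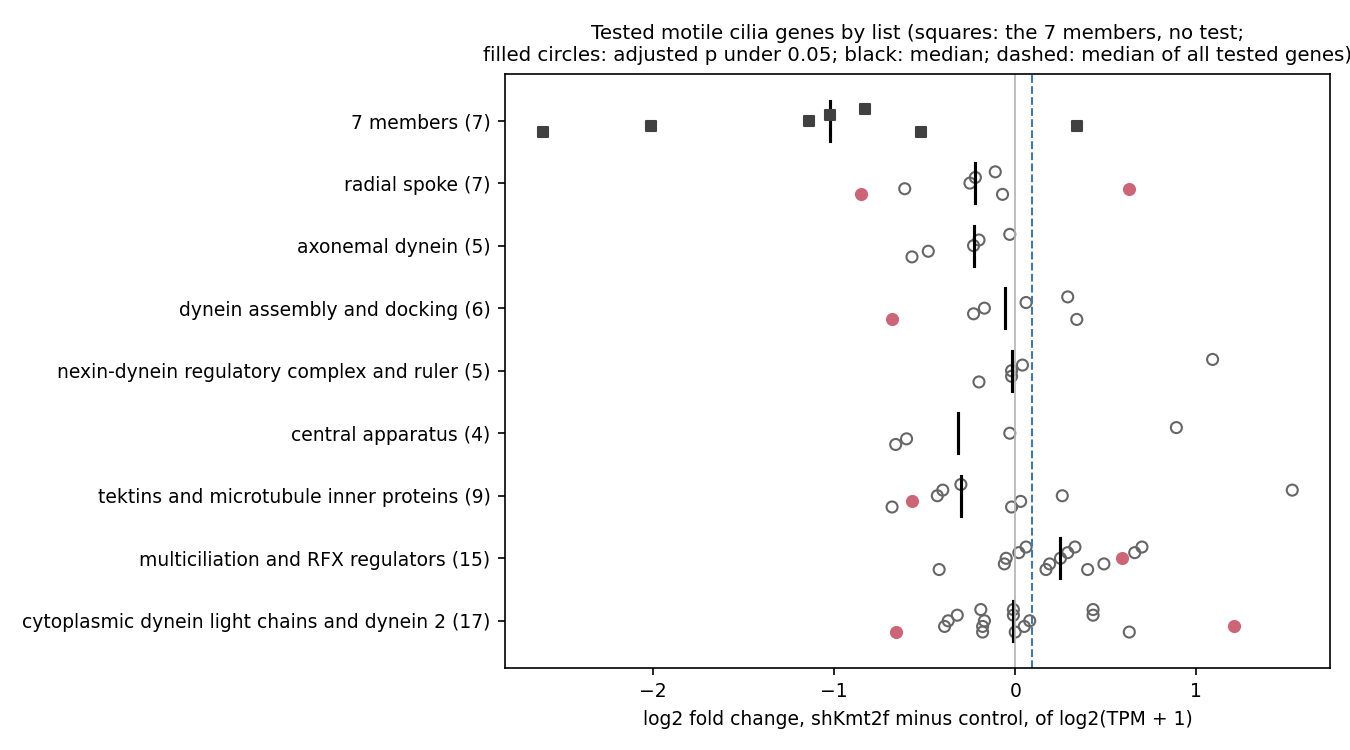
Log2 fold change (horizontal axis, shKmt2f minus control) of every tested gene in the 8 lists, with the 7 chosen genes above as squares without a test. Filled circles passed limma's adjusted p of 0.05, black ticks are list medians, and the dashed line is the median of all tested genes, 0.09; outside the 7 genes no point lies below -1.

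The remaining 45 genes of the lists were too low for the test. Of them 8 were lower in every shKmt2f library than in any control library and 1 was higher. Among all 3687 genes below that level 4.99% were lower and 7.08% higher in this way. Lrrc23, a spoke protein, had 1.33, 0.915 and 0.988 TPM in control libraries and 0.242, 0.286, 0.176 and 0.109 TPM in shKmt2f ones, 18.9% of control. Cfap206, which in ciliates and algae helps dock spokes and dyneins, stood at 0.678 ± 0.226 and 0.131 ± 0.112 TPM, and the dynein assembly factor Dnaaf3 at 0.744 ± 0.121 and 0.289 ± 0.0570 TPM. Enkur, a microtubule inner protein, stood at 1.12 ± 0.320 and 0.373 ± 0.184 TPM, and Ccno, a cyclin-like protein needed to amplify centrioles in multiciliated cells, at 0.415 ± 0.155 and 0.108 ± 0.0250 TPM.

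In the limma model without the filter, where 2.56% of 16143 genes were called lower and 5.69% higher, these 5 genes passed as lower. Lrrc23 had a log2 fold change of -0.78 (limma adjusted p = 0.0102), Dnaaf3 -0.43 (0.0221), Cfap206 -0.57 (0.0319), Ccno -0.35 (0.0367) and Enkur -0.63 (0.0405). Dnah2, an inner arm dynein heavy chain, Ccdc151, which docks outer arms, and Spag8, a microtubule inner protein, had limma adjusted p of 0.0593, 0.0693 and 0.0936. Wdr78, an inner dynein arm chain, was the 1 gene higher, at 0.0687 and 0.144 TPM in control replicates 1 and 2, listed at 0 in control replicate 3, and at 0.207 to 0.369 TPM in shKmt2f libraries (log2 0.29, limma adjusted p = 0.0434). These 9 genes were picked out after their values were seen, and at such levels the unknown depth limits what each value carries.

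**Figure D5:**
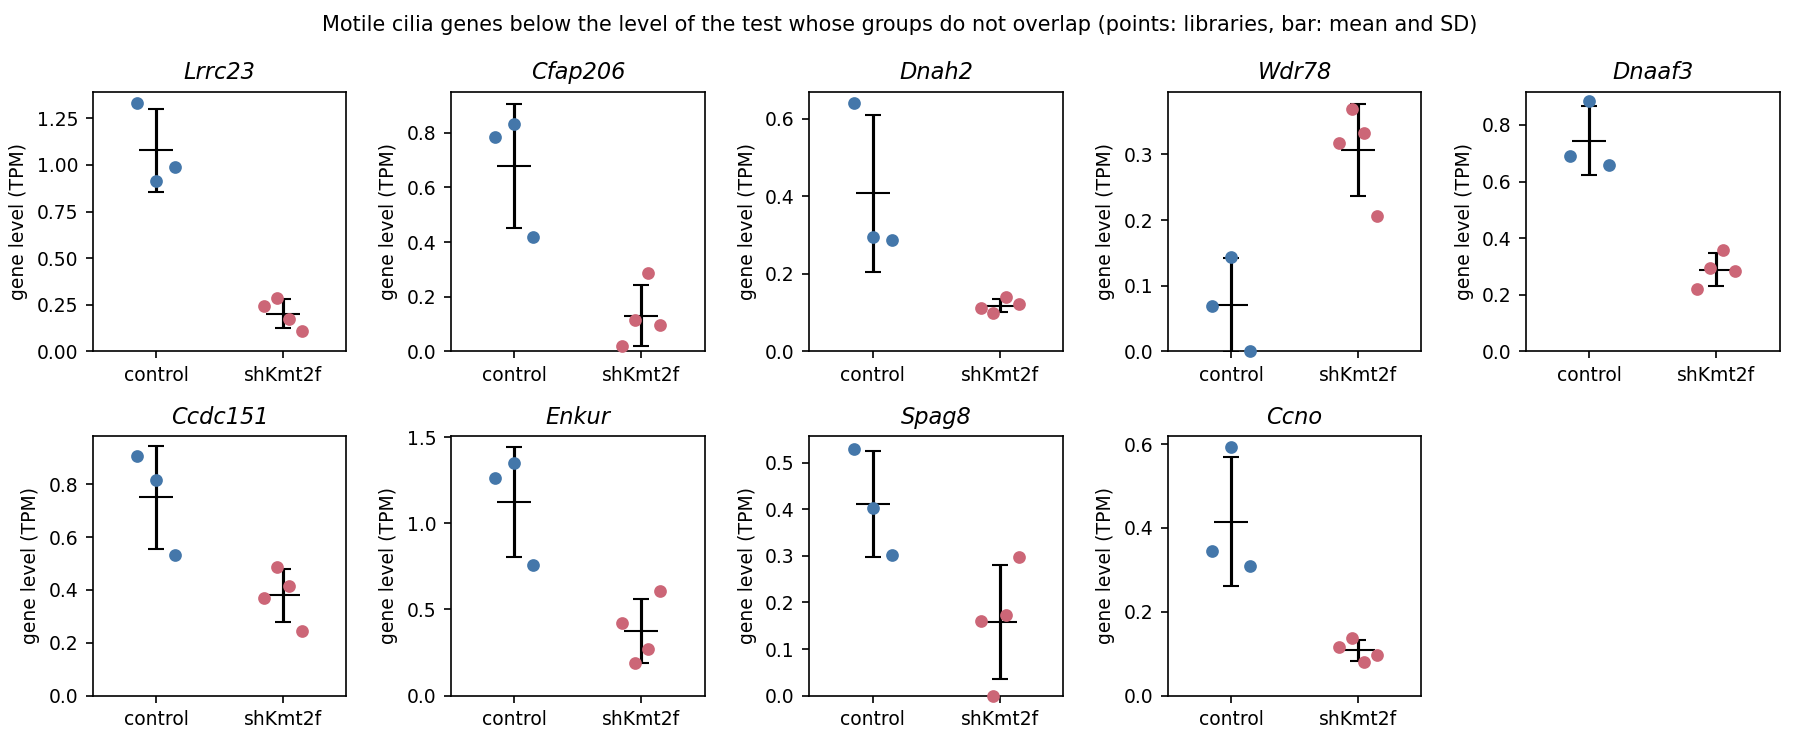
Level in TPM (vertical axis, starting at 0) of the 9 genes of the lists below the level of the test whose groups do not overlap; points are libraries and bars the mean and SD. The 8 lower genes lie under 1.4 TPM in all libraries, and Wdr78 is the only one with shKmt2f points above the control points.

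Markers of cells that carry motile cilia were nearly missing from the tables. Of 14 markers of multiciliated or ependymal cells, 13, among them Dnah5 and Tekt4, had no listed transcript. The other was Tppp3, which is also found outside such cells, at 16.9 to 19.5 TPM in control libraries and 11.8 to 15.3 TPM in shKmt2f ones, with a log2 fold change of -0.36 that did not pass in limma. Of the markers of retinal cells, Otx2, a photoreceptor precursor factor, stood at 370.0 ± 40.5 TPM in control libraries.

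Marker lists of retinal cell types also differed between the groups. These counts stand beside 3.69% of all tested genes called lower and 10.4% higher. Of 11 progenitor markers 2 were called lower, Hes5 and Ccnd1, and the summed level was 1184.7 to 1508.3 TPM in control libraries and 1017.5 to 1159.9 TPM in shKmt2f ones. Of 8 photoreceptor precursor markers 4 were higher, Crx, Otx2, Neurod1 and Prdm1, and the sum was 561.7 to 783.9 TPM in control libraries and 1071.6 to 1387.3 TPM in shKmt2f ones. Of 7 ganglion cell markers 3 were tested, Isl1, Nefl and Nefm, and all 3 were higher. The sum of the 7 was 3.56 to 5.83 TPM in control libraries and 8.64 to 11.4 TPM in shKmt2f ones. Isl1 and Nefl reached 1 TPM in 2 and 1 control libraries but in 4 shKmt2f ones, so they were tested through their shKmt2f level. Among the untested markers Pou4f1 was higher without overlap, while Pou4f2, Rbpms and Sncg overlapped. Markers of the amacrine cell (1 of 5 called higher), pigment epithelium (sum 4.35 to 5.08 and 5.97 to 8.21 TPM), ciliary margin (1.04 to 1.79 and 0.912 to 1.30 TPM), lens, microglia and astrocyte were examined too, and in the last 3 no sum passed 1.75 TPM. The pigment epithelium sum was mostly Dct, the 1 marker of that list tested, which was called higher, at 3.93 ± 0.399 and 6.75 ± 0.943 TPM. Tyrp1, Pmel, Best1 and Lrat overlapped, and 3 of the 8 pigment epithelium markers had no listed transcript. Endothelial markers summed to 62.3 to 104.9 and 72.6 to 108.7 TPM, through Kdr and Cldn5, while Pecam1 stayed at or under 0.160 TPM. The part of these shifts in the lower levels of the motile cilia genes was not tested.

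Over the 7 libraries, the genes whose profile was most like that of Rsph1 were ranked by the root mean square difference of centred log2(TPM + 1) values among 9571 genes with a mean of at least 5 TPM. Fam183b, chosen like Rsph1 for its low shKmt2f values, was at 0.42 log2 units. Rdm1, a DNA recombination gene, followed at 0.44, then the neuropeptide gene Npy at 0.53, the FK506-binding protein gene Fkbp1a at 0.54 and Ormdl2, a regulator of sphingolipid synthesis, at 0.56. Dynlrb2 lay 0.75 from Rsph1, Rfx2 0.84, Rsph9 0.91, Foxj1 1.07 and Rfx3 1.49. The profile of Rsph1 includes its difference between the groups, so low shKmt2f values of the nearest genes follow from the ranking and nothing is read from them.

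Genes next to the 7 were examined within 100000 bases, where Rfx3 had no protein-coding neighbour and the other 6 had 39. Of these, 22 were tested, 1 was called lower (4.55%, against 3.69% of all tested genes) and 0 higher (against 10.4%) in limma. At an unadjusted p under 0.05, 2 were lower and 3 higher, where 9.14% and 23.2% of all tested genes were. The 1 called was Slc37a1, a sugar phosphate transporter gene next to Rsph1 (chr17:31286792-31350739), which fell from 6.84 ± 0.657 to 3.89 ± 1.11 TPM (log2 -0.70, SE 0.19, limma adjusted p = 0.0438), a call lost in 5 of the 7 fits that left out 1 library (adjusted p of up to 0.117 in limma). The 3 tested neighbours of Fam183b had log2 fold changes from 0.54 to 0.77, against -2.01 for Fam183b itself. The 7 of Rsph9 ranged from -0.34 to 0.04, the 6 of Rfx2 from -0.28 to 0.56, and the 1 of Dynlrb2, Cdyl2, stood at -0.01. Rnf157 lies on the minus strand of chromosome 11 like Foxj1, and its end, not its start, is close to Foxj1. It had 108.5, 145.3 and 150.9 TPM in control libraries and 15.3, 33.8, 141.2 and 143.3 TPM in shKmt2f ones. The shKmt2f group was thus split and did not pass (limma adjusted p = 0.356), unlike the narrow range of Foxj1.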

How the data were processed

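Transcript tables of 3 control and 4 shKmt2f libraries were used. Salmon 0.11.3, sleuth 0.30.0 and the build GRCm38.p6 are named in the submitters' processing notes. The authors deposited TPM per transcript, and, per the file headers, p-value and q-value columns and natural log effects, alike in all 7 tables. Each table had 55475 rows, 71 without TPM. Depth is unknown, so no counting interval is given.

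TPM was summed per gene, giving 16143 genes. Of these, 12456 reached 1 TPM in 3 or more libraries, and their log2(TPM + 1) was fitted by group with limma 3.58.1 (R 4.3.3; trend, robust). A gene was called at a Benjamini-Hochberg adjusted p under 0.05. The script was tested on simulated data. Setd1a was compared on log2(TPM + 0.1) by an exact permutation test, two-sided.

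The 7 genes, the 8 lists and the markers were chosen with earlier results of these data known. Named were the 7 genes, up to 4 passing genes per list (or the 2 most abundant), the 5 genes most like Rsph1, Setd1a and passing neighbours within 100000 bases; other named genes were chosen after their values were seen. Positions are from GENCODE annotation of GRCm38 and promoters from RefSeq. Other settings tried were no filter, median-ratio scaling, a pseudocount of 0.1, loess correction (span 0.3) on GC content and length, protein-coding transcripts only, the replicate number as a block, and leaving out each library.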

Additional observations from a re-analysis of the deposited data

Results flagged for a closer look

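In 4 sets of values the shKmt2f group held 1 library far from the other 3, by the gap to its nearest neighbour as a part of the group's range (Dixon's test). For Dynlrb2 it was replicate 3, at 1.58 TPM where the other 3 libraries had 0.970 to 1.02 TPM. For Rfx3 it was replicate 1, at 9.73 TPM against 14.9 to 15.8 TPM. For Saxo2 it was replicate 4, at 3.29 TPM against 4.57 to 4.83 TPM. For the Rfx2 transcript of 3350 bases it was also replicate 4, at 0.353 TPM against 0.0843 to 0.103 TPM. In all, 40 groups of values were examined, and chance flags about 1 in 20. The libraries concerned were replicates 1, 3 and 4.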

How the results depend on the processing

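The log2 differences of the 7 genes kept their sign under each alternative that gave a value; Foxj1 had none when a control library was left out, because it then fell short of the filter. With a pseudocount of 0.1 the differences of Rsph1, Dynlrb2, Foxj1 and Rfx2 were larger, at -2.93, -1.63, -0.89 and -1.44, as the smaller constant compresses low values less. Foxj1 was -0.42 after GC and length correction and -0.59 after median-ratio scaling. Among genes of the 8 lists, the lower count of 4 was 11 with median-ratio scaling (16.2%, against 6.70% of all tested genes). It was 8 without a filter (7.08% of 113 genes, against 2.56% of all genes) and 1 to 4 with 1 library left out. The higher count of 3 was 6 of 59 (10.2%) with protein-coding transcripts only, where 1452 of all 10857 tested genes were higher. With 1 library left out it was 0 to 10, where the 10 were 14.9%, against 19.7% of all genes then tested. Over all genes 1755 were called, 1150 after GC and length correction and 283 to 3004 with 1 library left out, the most without control replicate 2. Apart from fewer libraries, the cause of these shifts was not tested. The Setd1a difference of -0.94 on log2(TPM + 0.1) was -0.40 with a pseudocount of 1 (exact permutation p = 0.0286) and ranged from -0.99 to -0.84 with 1 library left out, where exact permutation p was 0.0667 without a control and 0.1 without a shKmt2f library, the smallest those designs allow. For libraries of the same replicate number, deviations from the group means correlated at 0.06 to 0.08 across genes, and for the other pairs at -0.17 to 0.1. Whether a shared number marks a shared origin is not in the labels, and with so few libraries these values cannot settle it. With the replicate number as a block, 1 gene of the lists was lower (1.47%) and 4 higher (5.88%), and 5 of the 7 genes were lower. Of all 12456 tested genes 1377 were then called, 1044 of them higher. TPM hides depth, so levels under about 1 TPM are the least certain.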
